A study of Homo sapiens with 8 samples.

Results

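The 10 genes described here encode chaperones of the endoplasmic reticulum (ER) and other factors that cells make more of when unfolded proteins build up in that compartment. They were chosen by symbol from the 22504 genes of the deposited expression table, and each of HSPA5, HSP90B1, HYOU1, DNAJB9, DNAJC3, SDF2L1, PDIA4, CRELD2, XBP1 and HERPUD1 was found there once. The RNA came from U2OS cells, an established human osteosarcoma line, and was sequenced after selection of polyadenylated transcripts. The cells overexpressed the actin mutant G13R or expressed GFP as the control. G13R actin is known as a form that does not assemble into filaments. The 4 groups were G13R cells after serum stimulation, G13R cells in normal growth, GFP cells after serum stimulation and GFP cells in normal growth, with 2 libraries each and 8 in all. The labels do not give the actin gene that carries the mutation, the vector or promoter, whether the cells were clones, the length of the serum treatment, or whether serum was withdrawn before it. Nor do the labels say whether the libraries of a group are separate cultures, so each p-value here stands for library-to-library spread that could be technical alone.

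The lumen of the ER is where secreted and membrane proteins fold. Its Hsp70 chaperone BiP, encoded by HSPA5, binds unfolded chains and is also known to hold the stress sensors ATF6, IRE1 and PERK inactive. When unfolded proteins draw BiP away, ATF6 is cut to release a transcription factor, IRE1 splices XBP1 mRNA to a form that encodes an active factor, and PERK slows translation and raises ATF4. This unfolded protein response (UPR) is known to raise the genes of ER chaperones, disulfide isomerases and ER-associated degradation together, through promoter elements named ER stress response elements (ERSE) that ATF6 and XBP1 bind with the factor NF-Y.

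Because ERSE elements are known in promoters of this gene class, the upstream sequences of the genes were searched for them. The promoter sequences are from RefSeq, build GRCh38.p14, and all 10 symbols matched, XBP1 and PDIA4 with 2 annotated starts each. The 250 bases before each start were read on both strands for ERSE (CCAAT, any 9 bases, then CCACG), ERSE-II (ATTGG, any 1 base, then CCACG) and the core of the UPR element (TGACGTG). Exact ERSE matches lay before HSPA5, HSP90B1, XBP1 and CRELD2, and exact ERSE-II matches before HERPUD1, SDF2L1 and HYOU1, which makes 7 of the 10 genes with either element. For XBP1 the match lay before 1 of its 2 starts, and the other start had none. Of all 35116 upstream windows of RefSeq, 26 held ERSE (0.074%) and 18 held ERSE-II (0.0513%). Since the elements were already known from promoters of this gene class, these shares are a description and no test of enrichment. The UPR element core lay before HYOU1 alone among the 10 genes and in 1.68% of all windows, and at HYOU1 it overlapped the more distant ERSE-II match. No exact ERSE or ERSE-II match was found in these windows of DNAJB9, DNAJC3 and PDIA4. With 1 mismatch allowed, DNAJC3 had an ERSE match, at the cost of 1.36% of all windows matching. A match is a match of letters and says nothing of binding in these cells.

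The 250 bases before the HSPA5 start, at chr9:125241344-125241593 on the minus strand, are shown whole with the ERSE in capitals, followed by every other exact ERSE and ERSE-II match with 15 bases on each side, with the match in capitals and written on the strand on which it reads forward. In the same order, those stretches lie at chr12:103930201-103930249 (plus strand), chr12:103930306-103930354 (minus), chr22:28800588-28800636 (minus), chr22:49918539-49918587 (minus), chr16:56932010-56932050 (plus), chr22:21642099-21642139 (minus), chr11:119057259-119057299 (plus) and chr11:119057365-119057405 (plus).
HSPA5, upstream region: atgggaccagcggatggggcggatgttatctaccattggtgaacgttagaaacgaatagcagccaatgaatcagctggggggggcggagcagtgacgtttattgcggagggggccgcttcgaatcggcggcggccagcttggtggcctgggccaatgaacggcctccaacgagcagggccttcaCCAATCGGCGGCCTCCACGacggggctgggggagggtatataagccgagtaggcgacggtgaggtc
HSP90B1, distal ERSE: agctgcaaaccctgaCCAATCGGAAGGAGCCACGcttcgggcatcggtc
HSP90B1, proximal ERSE: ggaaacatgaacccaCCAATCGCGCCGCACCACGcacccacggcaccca
XBP1, ERSE: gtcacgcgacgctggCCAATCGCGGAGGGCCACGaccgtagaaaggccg
CRELD2, ERSE: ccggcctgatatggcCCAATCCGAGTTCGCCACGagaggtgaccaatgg
HERPUD1, ERSE-II: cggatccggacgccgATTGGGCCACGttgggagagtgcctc
SDF2L1, ERSE-II: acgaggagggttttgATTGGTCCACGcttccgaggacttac
HYOU1, proximal ERSE-II: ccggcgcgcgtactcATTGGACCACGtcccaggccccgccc
HYOU1, distal ERSE-II: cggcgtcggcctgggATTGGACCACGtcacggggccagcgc

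Positions are counted back from the start, with -1 as the last base before it. The ERSE of HSPA5 lay at -66 to -48, on the gene's own strand. That of XBP1 lay at -52 to -34 from 1 of its 2 starts, also on its own strand. The ERSE of CRELD2 lay on the opposite strand at -80 to -62. HSP90B1 had matches at -194 to -176 on its own strand and at -89 to -71 on the opposite strand. The ERSE-II matches of HYOU1, at -185 to -175 and -79 to -69, and that of SDF2L1, at -188 to -178, were on the opposite strand, and that of HERPUD1, at -117 to -107, on its own. The element thus lay within 100 bases of the start in HSPA5, XBP1, CRELD2, HSP90B1 and HYOU1, and farther out in HERPUD1 and SDF2L1.

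**Figure D1:**
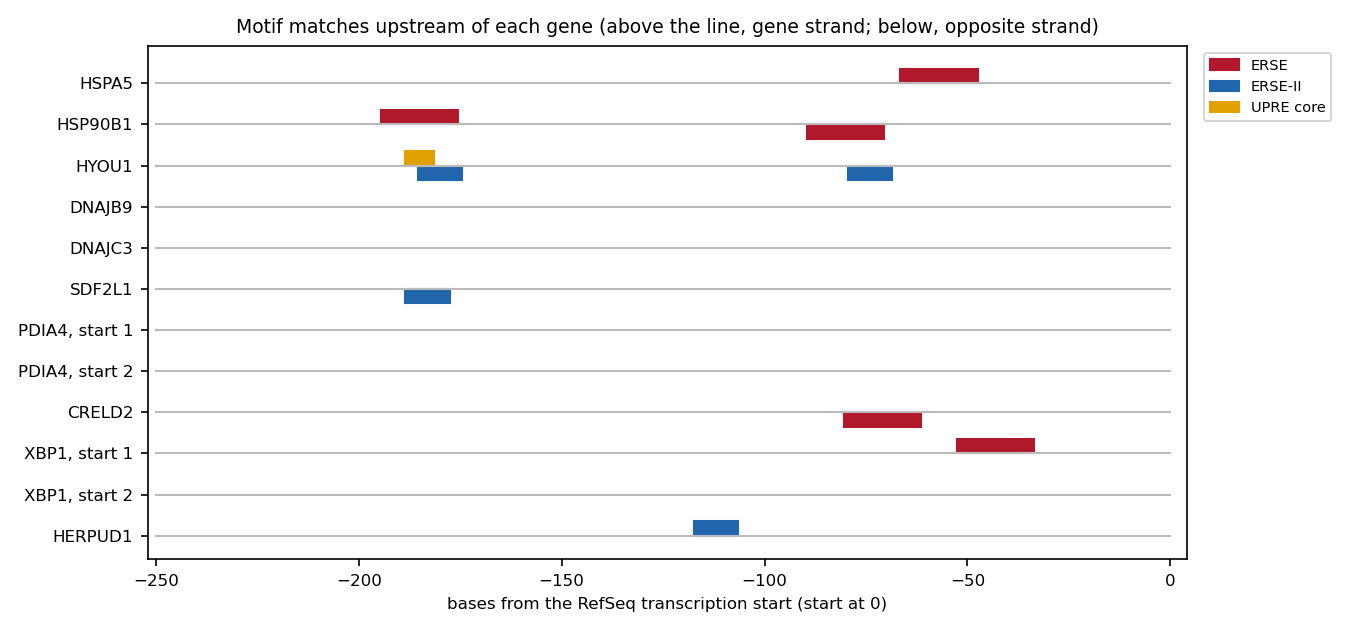
Exact matches of ERSE, ERSE-II and the UPR element core in the 250 bases before each annotated start of the 10 genes; the x axis is the distance in bases from the start, and boxes above or below a line are on the gene's strand or the opposite one. Of the 10 genes, 7 hold ERSE or ERSE-II, and DNAJB9, DNAJC3 and PDIA4 hold neither.

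Between 12065 and 12568 genes reached 1 FPKM (fragments per kilobase of transcript, scaled to the mapped fragments of the library) in a library. ACTB, the beta-actin gene, lay between 7949 and 11245 FPKM in G13R libraries and between 2543 and 2779 FPKM in GFP libraries. In a principal component analysis of all 12996 genes tested, GFP serum replicate 2 stood apart at 44.7 on the first component (53.9% of the variance). The other library of GFP cells after serum was at 26.0, and those of G13R cells after serum were at 11.8 and 14.5, while the normal growth libraries lay between -25.3 and -21.6. Of 10 osteoblast lineage markers 6 reached 1 FPKM in a library; SPARC lay between 384 and 765 FPKM, and TWIST1 was listed at 0 throughout. In G13R cells the summed level of the 10 markers was 546 to 592 FPKM after serum and 470 to 512 FPKM in normal growth. In GFP cells it was 693 to 848 FPKM after serum and 601 to 689 FPKM in normal growth. Most of the sum came from SPARC in every library, so it mainly follows that 1 gene. The part of the sum in the results was not tested. Of 6 epithelial markers 5 reached 1 FPKM in a library: KRT8 and KRT18 lay between 259 and 580 FPKM, EPCAM, CDH1 and KRT14 at most at 4.47 FPKM, and KRT19 at most at 0.478 FPKM. Of 5 neural markers 5 reached 1 FPKM in a library, with a summed level between 24.1 and 30.5 FPKM, most of it from RBFOX3 and SYP. Of 5 leukocyte markers only CD68 and of 5 endothelial markers none reached 1 FPKM.

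All 10 genes passed the filter on low values, which asked for 1 FPKM or more in 2 or more libraries. FPKM values are per length, so levels can be set side by side between genes. The Hsp90 of the ER, HSP90B1 (also called GRP94; chromosome 12, 104323885 to 104347423, hg19), was highest at 187 ± 17.6 FPKM (SD over the 8 libraries), and ranked between 327 and 450 among all genes of a library. HSPA5 (chromosome 9, 127997132 to 128003609) followed at 141 ± 18.6 FPKM and was below HSP90B1 in 8 of 8 libraries. SDF2L1 (80.4 ± 12.1 FPKM) and XBP1 (76.0 ± 11.2 FPKM) did not separate, since SDF2L1 was the higher in 5 of 8 libraries. HERPUD1 (62.0 ± 13.5 FPKM) was below XBP1 in 6 of 8 libraries and above it in the other two, those of GFP cells after serum. CRELD2 (46.1 ± 5.64 FPKM) was above HYOU1 (37.5 ± 5.11 FPKM) in 6 of 8 libraries. PDIA4 (25.3 ± 2.48 FPKM), DNAJB9 (10.5 ± 0.977 FPKM) and DNAJC3 (7.83 ± 1.34 FPKM) were lowest, in that order in each of the 8 libraries.

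None of the 10 genes varied by as much as 2-fold over the study. The highest library exceeded the lowest by a ratio of 1.29 for DNAJB9 at the least and 1.73 for HERPUD1 at the most. The SD of log2(FPKM + 1) over the 8 libraries was below the median of all tested genes, 0.233, in 9 of the 10 genes and above it in HERPUD1, at 0.30. SDF2L1 (0.231) and XBP1 (0.227) lay close to that median. The median covers genes of all levels, 5162 of them between 1 and 10 FPKM. Genes were not matched by level, so the 10 genes are not shown to be steadier than others like them.

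**Figure D2:**
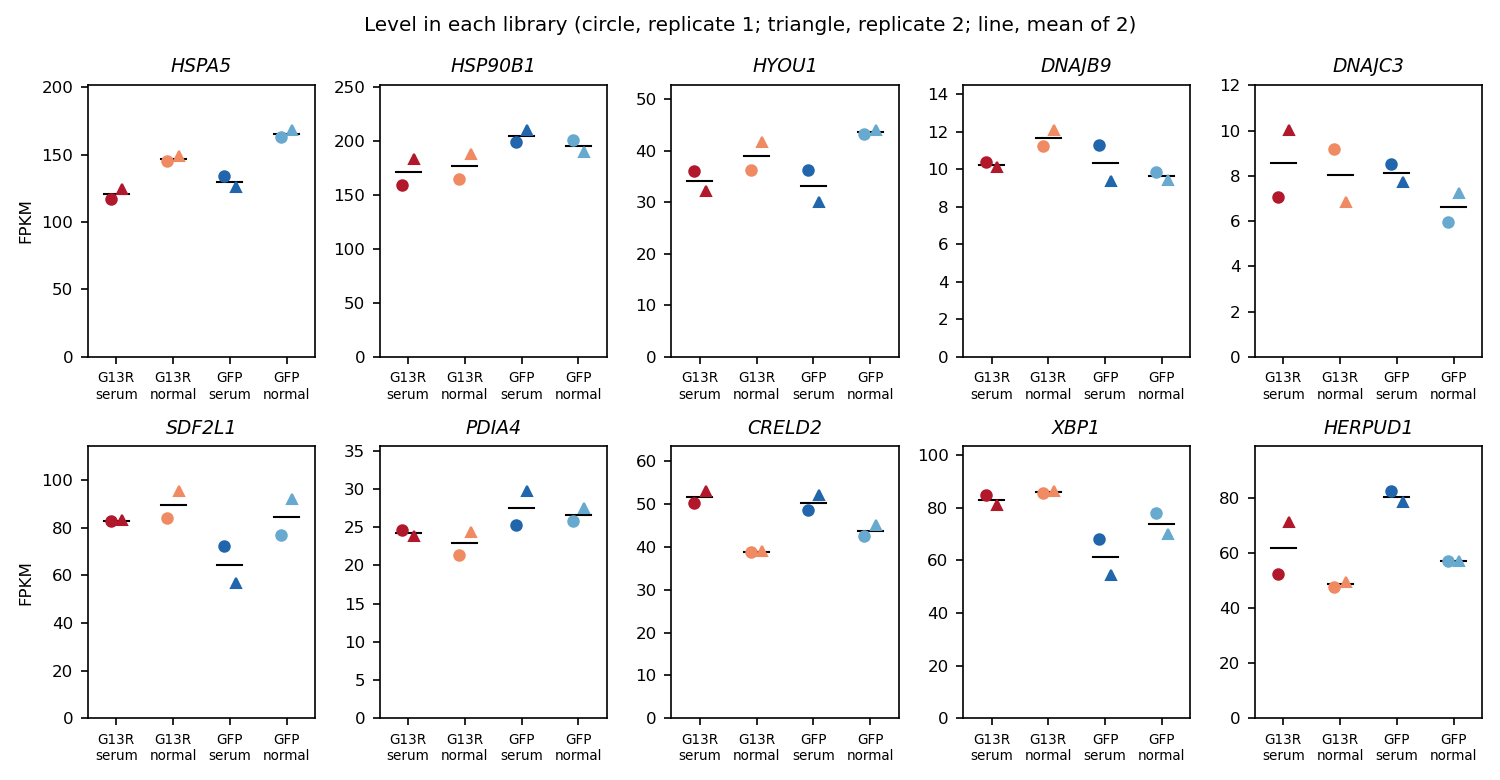
FPKM of each of the 10 genes in every library, by group from G13R after serum to GFP in normal growth; circles and triangles are replicates 1 and 2, lines are means of the 2 libraries, and every y axis starts at 0. HSPA5 is lower and CRELD2 higher after serum in G13R and in GFP cells, though CRELD2 was not called in GFP cells. After serum the G13R libraries lie above the GFP libraries for XBP1 and SDF2L1 and below for HERPUD1, HSP90B1, HSPA5 and PDIA4. None of these differences between G13R and GFP cells was called. Of all tested genes 51.9% did not overlap in that comparison.

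The first comparison sets serum against normal growth in G13R cells. HSPA5 fell and CRELD2 rose, and the other 8 genes did not pass the test. Tests here are limma on log2(FPKM + 1) across all 12996 genes with Benjamini-Hochberg adjustment, errors of log2 fold changes are SE, and a call is an adjusted p under 0.05. The 2 of 10 genes called stand beside 12.9% of all tested genes called in this comparison (8.26% higher and 4.62% lower), and the set's median log2 fold change of -0.05 beside 0.04 for all tested genes. The libraries did not overlap in 7 of the 10 genes, 2 higher and 5 lower, where 60.7% of all tested genes did not (34.3% higher and 26.4% lower).

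HSPA5 had 117 and 125 FPKM in G13R cells after serum, against 145 and 149 FPKM in G13R cells in normal growth. Every serum library was below every normal growth library, by a log2 fold change of -0.28 ± 0.08 (adjusted p = 0.0391). CRELD2, an ER-resident protein with disulfide isomerase activity (chromosome 22, 50311815 to 50321188), had 50.1 and 52.9 FPKM after serum, against 38.8 and 38.9 FPKM in normal growth. Its rise of 0.40 ± 0.09 (adjusted p = 0.0195) was the larger of these 2 changes, with no overlap between the groups. The first 292 bases of CRELD2 in the table's annotation overlap ALG12, and reads there cannot be told apart without strand. HERPUD1, which encodes a membrane protein of ER-associated degradation (chromosome 16, 56965960 to 56977798), had 52.4 and 71.2 FPKM after serum, against 47.7 and 49.6 FPKM in normal growth. The serum libraries lay higher but far apart, and the difference of 0.32 ± 0.13 was not called (adjusted p = 0.121).

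HSPA5 and CRELD2 were each uncalled when any single G13R library was left out, with adjusted p between 0.114 and 0.222 for HSPA5 and between 0.0827 and 0.129 for CRELD2. HSPA5 was also uncalled without GFP normal replicate 1 or 2, which only lend their spread (adjusted p = 0.0633 and 0.0635), without the filter on low values (0.0527) and without the intensity trend (0.131). CRELD2 was also uncalled without the trend (0.0605). HERPUD1 was called without G13R serum replicate 1 (0.54, adjusted p = 0.0357).

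In GFP cells the serum response was measured the same way. HSPA5, HYOU1 and SDF2L1 fell and HERPUD1 rose, while the other 6 genes were not called. The 4 of 10 genes called stand beside 30.7% of all tested genes called (14.9% higher and 15.7% lower), and the median of the set was 0.05 beside 0.01 for all tested genes. The libraries did not overlap in 7 of the 10 genes, 3 higher and 4 lower, where 66.3% of all tested genes did not (33.3% higher and 33% lower). Under quantile normalization the split of 1 higher and 3 lower became 3 higher and 0 lower.

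HSPA5 had 134 and 126 FPKM in GFP cells after serum, against 163 and 168 FPKM in GFP cells in normal growth. It was lower in every serum library, by -0.35 ± 0.08 (adjusted p = 0.0073). HYOU1, an Hsp110-type partner that exchanges nucleotide on BiP (chromosome 11, 118914900 to 118927913), had 36.2 and 30.04 FPKM after serum, against 43.2 and 44.1 FPKM in normal growth, a change of -0.39 ± 0.12 (adjusted p = 0.0316). SDF2L1, which works with ER J-domain proteins to keep chains from aggregating (chromosome 22, 21996550 to 21998587), had 72.1 and 56.8 FPKM after serum, against 76.8 and 92.1 FPKM in normal growth. Its libraries did not overlap, but those of each group lay far apart, and the change was -0.39 ± 0.13 (adjusted p = 0.0431).

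HERPUD1 had 82.3 and 78.5 FPKM in GFP cells after serum, against 57.0 FPKM in each GFP library in normal growth. The rise of 0.49 ± 0.13 (adjusted p = 0.016) was the largest change of the 10 genes in this comparison. CRELD2 had 48.5 and 52.0 FPKM after serum, against 42.4 and 45.0 FPKM in normal growth, and was not called (0.20 ± 0.09, adjusted p = 0.124). XBP1 (chromosome 22, 29190543 to 29196585) had 68.1 and 54.3 FPKM after serum, against 77.9 and 70.0 FPKM in normal growth. It lay lower without overlap but was not called (-0.28 ± 0.11, adjusted p = 0.0845). The table holds 1 value per gene for XBP1, so the spliced and unspliced mRNA that IRE1 activity sets apart are not read here.

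Without GFP serum replicate 2, which stands apart from the other libraries, SDF2L1 (-0.22, adjusted p = 0.244) and HYOU1 (-0.26, adjusted p = 0.17) were uncalled; without GFP serum replicate 1, XBP1 was called (-0.44, adjusted p = 0.00806). Leaving out GFP normal replicate 2 ended the calls of HSPA5 (adjusted p = 0.0535), HYOU1 (0.12), SDF2L1 (0.251) and HERPUD1 (0.0683), and leaving out GFP normal replicate 1 those of HYOU1 (0.107) and HERPUD1 (0.0742). The call of SDF2L1 was also lost without any 1 of the 4 G13R libraries, which only lend their spread (adjusted p between 0.0542 and 0.067). Without the filter on low values HERPUD1 (0.0519), HYOU1 (0.0646) and SDF2L1 (0.108) were uncalled, and HYOU1 and SDF2L1 also with the compared libraries alone (0.06 and 0.0951) and without the trend (0.0684 and 0.101).

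Fold changes after serum differed by expression level over all genes. The 633 tested genes with a mean between 100 and 300 FPKM had a median log2 fold change of -0.21 after serum in GFP cells and -0.09 in G13R cells, while the 5162 genes between 1 and 10 FPKM had medians of 0.14 in GFP cells and 0.11 in G13R cells. The 2510 genes between 30 and 100 FPKM had medians of -0.15 in GFP cells and -0.05 in G13R cells. SDF2L1, XBP1, HERPUD1, CRELD2 and HYOU1 are in that band. HSPA5, at -0.35 in GFP cells and -0.28 in G13R cells, and HSP90B1, at 0.07 in GFP cells and -0.05 in G13R cells, are both in the band from 100 to 300 FPKM. Quantile normalization gave HSPA5 -0.18 in GFP cells (adjusted p = 0.0939) and -0.22 in G13R cells (adjusted p = 0.0823), and neither was called. HYOU1 (-0.32, adjusted p = 0.0773) and SDF2L1 (-0.24, adjusted p = 0.176) also lost their calls in GFP cells. Under it HERPUD1 stayed called in GFP cells (0.62, adjusted p = 0.00709) and CRELD2 in G13R cells (0.41, adjusted p = 0.0163), and CRELD2 (0.29, adjusted p = 0.0312) and HSP90B1 (0.25, adjusted p = 0.0402) were also called higher in GFP cells. The part of expression level in these values was not tested.

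The remaining genes were not called after serum in either kind of cell. In G13R cells that also holds for XBP1, with 84.8 and 81.0 FPKM after serum against 85.7 and 86.3 FPKM in normal growth, for SDF2L1, with 82.9 and 83.1 FPKM after serum against 84.1 and 95.2 FPKM in normal growth, and for HYOU1, with 36.03 and 32.2 FPKM after serum against 36.3 and 41.8 FPKM in normal growth. All 3 lay lower after serum without overlap, by -0.05 ± 0.11, -0.11 ± 0.13 and -0.19 ± 0.12. HSP90B1 had 159 and 183 FPKM in G13R cells after serum, against 165 and 188 FPKM in normal growth, and 199 and 210 FPKM in GFP cells after serum, against 201.3 and 189.5 FPKM in normal growth. The groups overlapped in both comparisons, with differences of -0.05 ± 0.09 and 0.07 ± 0.09. Part of HSP90B1 (3444 bases of its span) overlaps C12orf73, which reached at most 8.69 FPKM. PDIA4, a disulfide isomerase of the ER (chromosome 7, 148700154 to 148725733), lay between 21.4 and 29.7 FPKM over the 8 libraries, with differences of 0.08 ± 0.12 and 0.04 ± 0.12 in G13R and GFP cells. DNAJB9, a J-domain cochaperone of BiP also called ERdj4 (chromosome 7, 108210012 to 108215294), lay between 9.39 and 12.1 FPKM, with differences of -0.17 ± 0.14 and 0.09 ± 0.14. It shares 183 bases of its span with THAP5 and 99 with PNPLA8, which reached 14.0 and 15.03 FPKM. DNAJC3, the J-domain protein known as p58IPK (chromosome 13, 96329411 to 96443301), lay between 5.97 and 10.03 FPKM, and its 2 libraries in G13R cells after serum, 7.08 and 10.03 FPKM, spanned most of that range. For these 4 genes the 95% intervals of the serum response reached from -0.47 to 0.52 in G13R cells and from -0.22 to 0.70 in GFP cells, so changes within those bounds were not resolved.

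**Figure D3:**
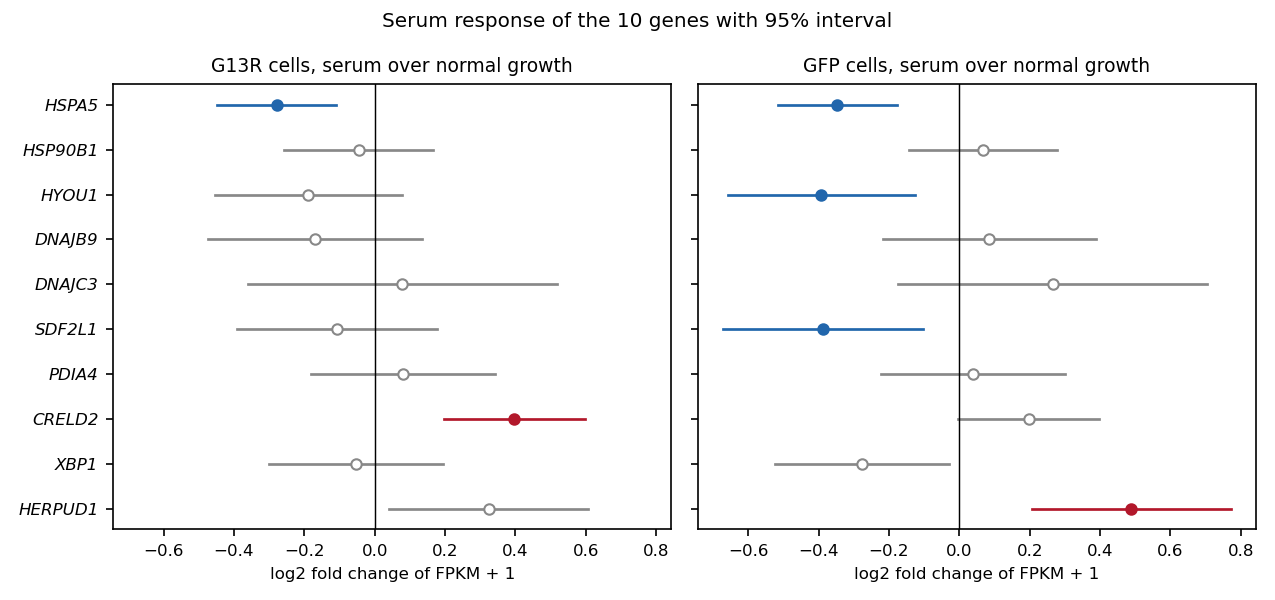
Log2 fold change of FPKM + 1, serum over normal growth, of the 10 genes in G13R cells (left) and GFP cells (right) with 95% intervals; filled red points were called higher, filled blue points called lower, open grey points not called. HSPA5 is called lower in each panel, at -0.28 and -0.35, CRELD2 is called higher in G13R cells at 0.40, and HERPUD1 in GFP cells at 0.49.

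Whether the serum responses differed between G13R and GFP cells was tested as the difference of the responses. None of the 10 genes was called, 0 had an unadjusted p under 0.05, and limma called 0% of all 12996 tested genes here (1533 of them had an unadjusted p under 0.05). The estimates ran from -0.26 ± 0.19 for DNAJB9 to 0.28 ± 0.18 for SDF2L1. For HSPA5 the difference of 0.07 ± 0.11 had a 95% interval from -0.17 to 0.31. A call in GFP cells alone, as for SDF2L1, HYOU1 and HERPUD1, or in G13R cells alone, as for CRELD2, was therefore not shown to be a difference between the cells.

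G13R cells were then set against GFP cells within each condition. In normal growth none of the 10 genes was called (1 had an unadjusted p under 0.05), where 0.0462% of all tested genes were (0.0385% higher and 0.00769% lower). The libraries did not overlap in 8 of the 10 genes, 2 higher and 6 lower in G13R cells, but 48.7% of all tested genes did not overlap in this comparison either, 14.4% higher and 34.3% lower. The median of the 10 genes was -0.15, beside -0.07 for all tested genes. HSPA5, at 145 and 149 FPKM in G13R cells against 163 and 168 FPKM in GFP cells, differed by -0.17 ± 0.08 (adjusted p = 0.319). Genes between 100 and 300 FPKM had a median of -0.16 in this comparison. Over the 10 genes the 95% intervals reached from -0.51 (HERPUD1) to 0.68 (DNAJC3).

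After serum none of the 10 genes was called either (4 had an unadjusted p under 0.05), where 0.823% of all tested genes were (0.331% higher and 0.492% lower). XBP1 came nearest, with 84.8 and 81.0 FPKM in G13R cells, against 68.1 and 54.3 FPKM in GFP cells. The G13R libraries were all higher, by 0.44 ± 0.11 (95% interval 0.19 to 0.69, adjusted p = 0.0804). SDF2L1 had 82.9 and 83.1 FPKM in G13R cells, against 72.1 and 56.8 FPKM in GFP cells, a difference of 0.37 ± 0.13 (adjusted p = 0.147). In both genes GFP serum replicate 2 was the lowest of the 8 libraries. Without GFP serum replicate 1 both were called (XBP1 0.60, adjusted p = 0.00572, and SDF2L1 0.54, adjusted p = 0.0217), and without GFP serum replicate 2 they were 0.28 and 0.20, with adjusted p of 0.361 and 0.585.

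HERPUD1 lay the other way after serum, with 52.4 and 71.2 FPKM in G13R cells, against 82.3 and 78.5 FPKM in GFP cells (-0.39 ± 0.13, adjusted p = 0.131). HSP90B1 had 159 and 183 FPKM in G13R cells, against 199 and 210 FPKM in GFP cells (-0.26 ± 0.09, adjusted p = 0.163). Thus XBP1 and SDF2L1 lay above, and HERPUD1, HSP90B1, HSPA5 and PDIA4 below, the GFP libraries without overlap, 6 of 10 genes beside 51.9% of all tested genes (22.6% higher and 29.4% lower). CRELD2, HYOU1, DNAJB9 and DNAJC3 overlapped, with differences between -0.01 and 0.05.

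**Figure D4:**
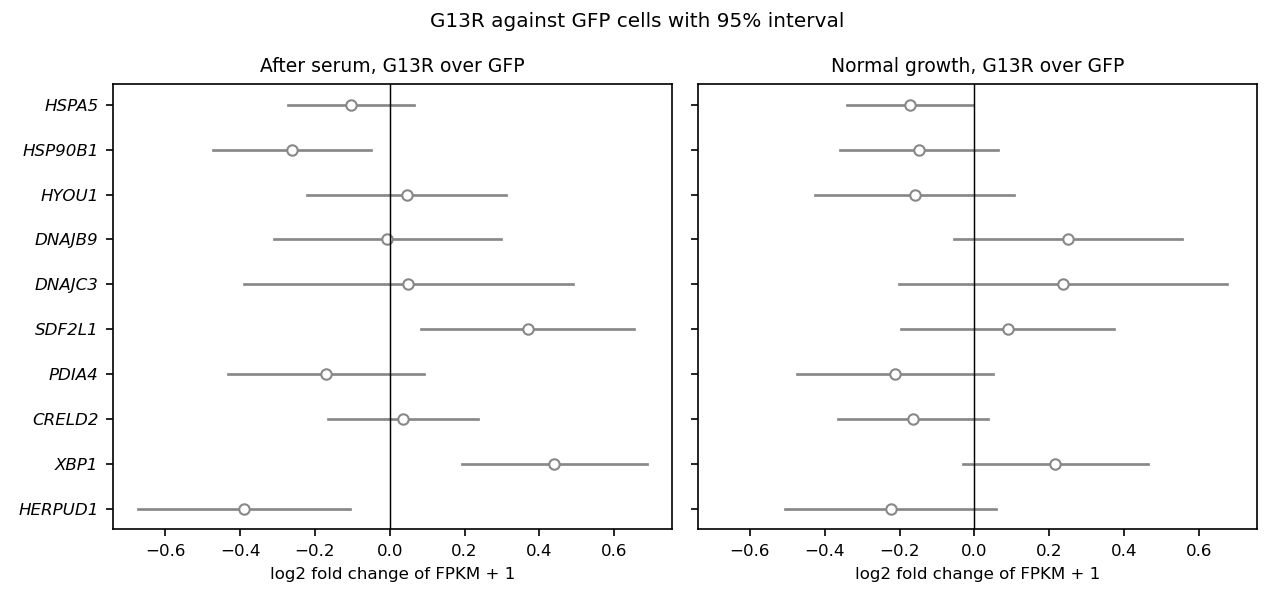
Log2 fold change of FPKM + 1, G13R over GFP cells, of the 10 genes after serum (left) and in normal growth (right) with 95% intervals; open grey points were not called. None of the 10 genes is called in either panel, and XBP1 at 0.44 and SDF2L1 at 0.37 after serum lie farthest to the right.

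The stress sensors and the other arms of the UPR were read from lists drawn up by function. Group means of the 3 sensor mRNAs lay between 2.23 and 9.64 FPKM. ERN1, which encodes IRE1, averaged 4.03 ± 0.53 FPKM in G13R cells after serum against 3.81 ± 0.511 FPKM in normal growth, and 2.23 ± 0.645 FPKM in GFP cells after serum against 2.44 ± 0.122 FPKM in normal growth (SD, n = 2). EIF2AK3, which encodes PERK, averaged 5.57 ± 0.411 FPKM in G13R cells after serum against 6.43 ± 1.83 in normal growth, and 9.18 ± 2.01 FPKM in GFP cells after serum against 5.85 ± 0.265 in normal growth. ATF6 averaged 7.44 ± 0.144 FPKM in G13R cells after serum against 9.17 ± 1.17 in normal growth, and 9.34 ± 1.69 FPKM in GFP cells after serum against 9.64 ± 0.75 in normal growth. None of the 3 sensor genes was called in any comparison. Differences such as those of ERN1 between G13R and GFP cells, or of EIF2AK3 after serum in GFP cells, were thus not resolved. ATF6B, the paralog of ATF6, was called higher in each kind of cell, at 33.3 ± 0.253 FPKM after serum against 21.6 ± 0.205 in normal growth in G13R cells (0.60 ± 0.10, adjusted p = 0.0059) and 40.4 ± 1.83 after serum against 22.4 ± 1.95 in normal growth in GFP cells (0.83 ± 0.10, adjusted p = 4.59e-04). Of the 9 sensors and activating proteases, 1 rose in G13R cells and 3 in GFP cells, there also MBTPS1, the protease that cuts ATF6 (0.42 ± 0.11), and CREB3L2, a related membrane-bound factor (0.67 ± 0.18), and none fell. Calls in the list, 11.1% of its genes in G13R cells and 33.3% in GFP cells, were near the 12.9% and 30.7% of all tested genes.

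Of the 15 genes of the PERK and ATF4 arm, 4 fell and 1 rose in G13R cells after serum (median -0.24), and in GFP cells 6 fell and 3 rose (median -0.34). Of all tested genes 4.62% fell and 8.26% rose in G13R cells (median 0.04), and 15.7% fell and 14.9% rose in GFP cells (median 0.01). ATF4 itself averaged 456 ± 7.04 FPKM after serum against 517 ± 19.0 in normal growth in G13R cells (-0.18 ± 0.07, adjusted p = 0.0969), and 439 ± 2.48 after serum against 555 ± 0.9 in normal growth in GFP cells, where it fell (-0.34 ± 0.07, adjusted p = 0.00397). Genes between 100 and 300 FPKM, a band below ATF4, had medians of -0.09 in G13R cells and -0.21 in GFP cells. The part of expression level in the fall of ATF4 was not tested. DDIT3, the ATF4 target that encodes CHOP, was at 44.8 ± 1.32 FPKM after serum against 59.8 ± 3.96 in normal growth in G13R cells and fell (-0.41 ± 0.12, adjusted p = 0.0449), and at 43.7 ± 0.571 after serum against 53.7 ± 8.86 in normal growth in GFP cells, not called (-0.28 ± 0.12, adjusted p = 0.0912). CHAC1, which breaks down glutathione, fell in both (-0.64 ± 0.13 and -0.43 ± 0.13). NUPR1, a stress-induced chromatin protein, rose in both (0.52 ± 0.13 and 0.73 ± 0.13). In GFP cells the risers were led by ATF3 (2.21 ± 0.26), also known as an immediate-early gene, and DDIT4 (1.44 ± 0.23), an inhibitor of mTOR signalling. Fallers there included PSAT1 (-0.58 ± 0.10) and CEBPG (-0.54 ± 0.15). CEBPB also fell in GFP cells, to 42.2 ± 2.30 FPKM after serum against 58.5 ± 1.21 in normal growth (-0.46 ± 0.09, limma adjusted p = 0.00314). Between G13R and GFP cells after serum, where 0.823% of all tested genes were called, 2 genes of this list were called. ATF3 was lower, at 36.8 ± 4.05 FPKM in G13R cells against 103 ± 49.0 FPKM in GFP cells (-1.39 ± 0.26, adjusted p = 0.0487). CEBPB, a transcription factor, was higher, at 58.0 ± 1.34 FPKM in G13R cells against 42.2 ± 2.30 FPKM in GFP cells (0.45 ± 0.09, adjusted p = 0.0487). Both lie close to the threshold. Without the filter on low values, limma called 4 of all genes higher and 0 lower in this comparison. ATF3 was thus uncalled there. The 107 calls here became 6 without the intensity trend, but 263 with the filter at 5 FPKM and 403 with the replicate block. Whether CEBPB kept its call in these settings is not given here.

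Of 33 other ER folding factors, only TXNDC5, a disulfide isomerase, was called in G13R cells (-0.39 ± 0.09), and in GFP cells 5 fell, led by FKBP14 (-0.72 ± 0.13), TXNDC5 (-0.61 ± 0.09) and the sulfhydryl oxidase QSOX1 (-0.52 ± 0.09), while ERP29 rose (0.30 ± 0.09). The median in GFP cells was -0.07, and in G13R cells 16 were above 0 and 17 below. Of 23 tested genes of ER-associated degradation, 1 rose in G13R cells, and 2 rose and 3 fell in GFP cells. HERPUD2, the paralog of HERPUD1, rose in each, to 16.7 ± 1.78 FPKM after serum against 9.19 ± 0.589 in normal growth in G13R cells (0.79 ± 0.14, adjusted p = 0.00685) and 18.8 ± 0.308 after serum against 10.6 ± 1.57 in normal growth in GFP cells (0.77 ± 0.14, adjusted p = 0.00293). The lectin gene OS9 also rose in GFP cells (0.38 ± 0.10), and AUP1 fell (-0.44 ± 0.08). The shares called, 3.03% and 4.35% for these lists in G13R cells and 18.2% and 21.7% in GFP cells, were below the 12.9% and 30.7% of all tested genes; the difference was not tested.

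Of 34 genes for translocation, signal peptide cleavage and N-glycosylation, 1 fell in G13R cells, and 9 fell and 1 rose in GFP cells (medians -0.08 and -0.13). Of all tested genes 4.62% fell and 8.26% rose in G13R cells (median 0.04), and 15.7% fell and 14.9% rose in GFP cells (median 0.01). Genes between 100 and 300 FPKM had medians of -0.09 in G13R cells and -0.21 in GFP cells. Those between 30 and 100 FPKM had -0.05 and -0.15. The part of expression level in these falls was not tested. SRPRB, a subunit of the signal recognition particle receptor, fell in both (-0.57 ± 0.16 and -0.86 ± 0.16), and SSR3 (-0.77 ± 0.15) and SRP72 (-0.58 ± 0.09) in GFP cells, where TRAM1 rose (0.48 ± 0.11). The SRPRB call in G13R cells was close to the threshold (limma adjusted p = 0.0475). Its level there was 37.0 ± 6.25 FPKM after serum against 55.1 ± 0.652 in normal growth. Of 30 genes of ER to Golgi transport, 1 rose and 2 fell in G13R cells, and 2 rose and 6 fell in GFP cells. KDELR3, a receptor that returns BiP and other KDEL proteins from the Golgi, rose in both, to 16.8 ± 2.63 FPKM after serum against 10.05 ± 1.15 in normal growth in G13R cells (0.68 ± 0.14) and 20.2 ± 0.513 after serum against 10.2 ± 0.386 in normal growth in GFP cells (0.92 ± 0.14). The GTPase gene SAR1B fell in both (-0.53 ± 0.11 and -0.46 ± 0.11), as did SEC22B, a SNARE of that step (-0.49 ± 0.10 and -0.48 ± 0.10). Calls made up 2.94% of the translocation list and 10% of the transport list in G13R cells, beside 12.9% of all tested genes, and 29.4% and 26.7% in GFP cells, beside 30.7%. SPCS2, a signal peptidase subunit, was the 1 gene of these lists called between G13R and GFP cells after serum, at 140 ± 25.4 FPKM in G13R cells against 89.5 ± 4.21 FPKM in GFP cells (0.63 ± 0.11, adjusted p = 0.0455). This call lies close to the threshold. With all 8 libraries kept, calls over all genes here moved between 4 without the filter on low values and 403 with the replicate block. Leaving out GFP serum replicate 1 moved them farther. Whether SPCS2 kept its call in these settings is not given here.

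Chaperones outside the ER are given for comparison. Of 21 cytosolic and mitochondrial chaperone genes, 10 fell and none rose in G13R cells (median -0.28), and 16 fell and 2 rose in GFP cells (median -0.64), beside 4.62% lower and 8.26% higher of all tested genes in G13R cells and 15.7% lower and 14.9% higher in GFP cells. The mitochondrial chaperonin HSPD1 averaged 297 ± 0.0297 FPKM in G13R cells after serum against 474 ± 7.11 in normal growth (-0.67 ± 0.10), and 254 ± 41.2 FPKM in GFP cells after serum against 512 ± 9.47 in normal growth (-1.02 ± 0.10). FKBP4, a cochaperone of Hsp90, fell in both (-0.59 ± 0.10 and -1.10 ± 0.10). The 2 genes that rose in GFP cells were CRYAB and DNAJB4 (0.62 ± 0.12). CRYAB averaged 67.5 ± 23.8 FPKM after serum against 27.2 ± 2.90 in normal growth there (1.24 ± 0.22). Between G13R and GFP cells, 2 of these 21 genes were called in normal growth, where 0.0462% of all tested genes were, and the same 2 after serum, where 0.823% were. They are HSPA1A and HSPA1B, near-identical copies whose reads the counting may have split. HSPA1A averaged 258 ± 22.9 FPKM in G13R cells in normal growth against 90.1 ± 6.12 FPKM in GFP cells (1.51 ± 0.11), and 241 ± 19.7 FPKM in G13R cells after serum against 67.4 ± 8.11 FPKM in GFP cells (1.83 ± 0.11). Whether the ER and the cytosolic genes differ as sets was not tested.

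**Figure D5:**
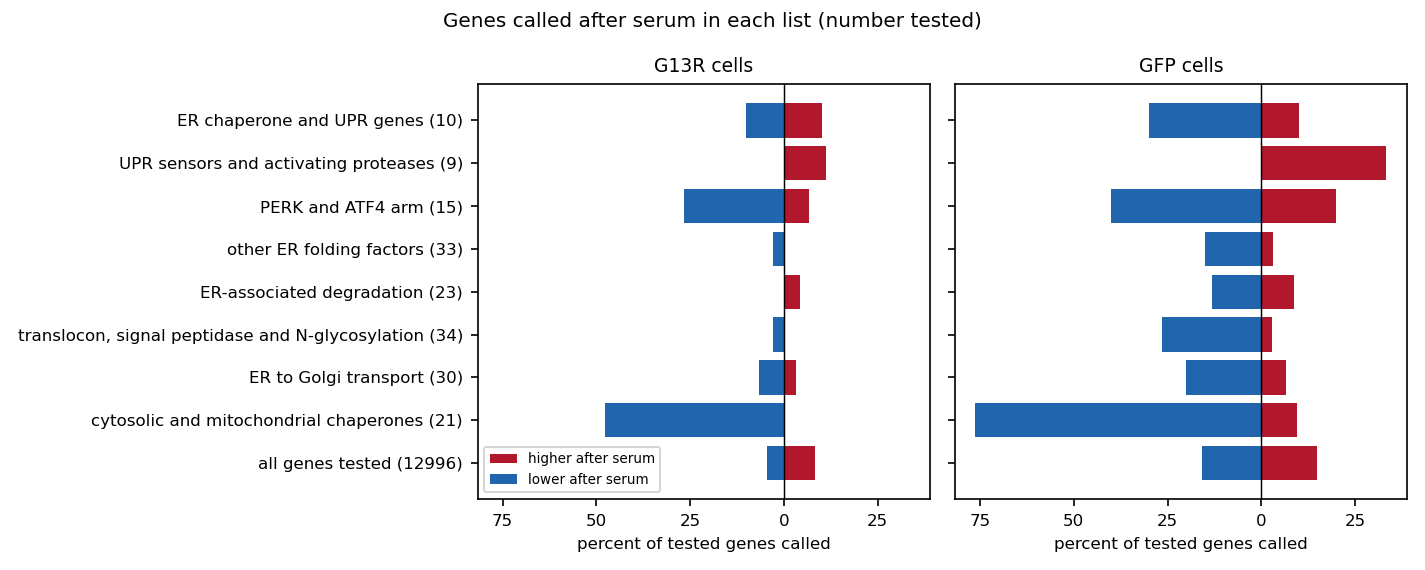
Share of the tested genes of each list called higher (right, red) or lower (left, blue) after serum in G13R cells and GFP cells, in percent, with the number tested in brackets and all 12996 tested genes at the bottom. The 10 ER chaperone and UPR genes show 1 higher and 1 lower in G13R cells and 1 higher and 3 lower in GFP cells. Of all tested genes 12.9% were called in G13R cells and 30.7% in GFP cells. The 21 cytosolic and mitochondrial chaperones show 10 lower in G13R cells, and 16 lower and 2 higher in GFP cells. Whether the lists differ as sets was not tested.

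The genes whose pattern over the 8 libraries was most like that of HSPA5, among 5053 genes with a mean of at least 5 FPKM and an SD of log2 values of at least 0.2, were GOT2, PSMA5, WBP11, SUV39H2 and TAGLN2, with Pearson's r between 0.989 and 0.994. None of them is on the lists above. For the mean pattern of the 10 genes the closest were LIG3, MTERFD1, TMEM164, RP11-392P7.6 and RPAP1, with r between 0.89 and 0.902. These values describe likeness only, since the libraries fall into serum and normal growth clusters.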

How the data were processed

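The authors deposited 1 table of FPKM values per gene and library, made with TopHat2 2.0.13 and Cufflinks 2.2.1, with hg19 and the fly build BDGP5 named as builds, per the submitters' processing notes. Which gene annotation they used is not stated. All 8 columns matched a sample by name (C in a name was taken to mean normal growth), and 0 were left over. Gene starts count from 0 (spans of 77.4% of 159 short olfactory receptor genes are multiples of 3), so 1 was added. FPKM keeps no read counts; low values gave no common step (8.4 to 16.1% of genes under 0.25 FPKM at the commonest ratio between libraries), so the depth is unknown and no counting interval is given. Cufflinks divides reads among transcripts, so near-identical or overlapping genes are uncertain.

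The tests took log2(FPKM + 1), on the 12996 genes that reached 1 FPKM in 2 or more libraries. They used limma 3.58.1 (R 4.3.3) with an intensity trend, 1 mean per group and all 8 libraries in the fit (4 residual degrees of freedom). Fold changes on this scale understate changes of low genes. The fit was tested on simulated data: in the G13R serum comparison with 12786 genes it recovered 84% of genes changed by -1 on the log2 scale, 100% by 1, 40% by -0.5 and 44% by 0.5. The 10 genes and the 7 other lists (166 genes, 165 tested) were chosen with earlier results of these data known. Besides the 10 genes, the text names ATF4, DDIT3, ATF6, ERN1 and EIF2AK3, and genes from up to 3 called genes each way per list and comparison with the largest changes and no overlap. The settings varied were the pseudocount (0.1), the filter (none, or 5 FPKM), the scaling (median-ratio or quantile), the trend (none), the libraries in the fit (the compared groups alone, or all but 1), and the replicate number as a block. Medians by expression level and the motif search were added after seeing the data.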

Additional observations from a re-analysis of the deposited data

How the results depend on the processing

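Across 16 alternatives for each comparison, or 15 for the difference of responses, no log2 fold change of the 10 genes that was called in the reported fit or in the alternative changed sign. Of these values, 37 lost a call, 7 gained one, and 31 changed sign without being called in either. In G13R cells the number of the 10 genes called after serum, 2, was 1 without the filter, 1 under quantile normalization, 0 without the trend, and 0 to 2 when single libraries were left out. In GFP cells, where it was 4, it was 1 without the filter, 2 with only the compared libraries, 2 without the trend, and 0 to 5 when single libraries were left out. G13R against GFP cells after serum, where it was 0, gave 1 with the replicate block and 0 to 2 without single libraries. In normal growth and for the difference of responses it was 0 throughout. The cause of these changes was not tested; leaving out a library leaves fewer samples in the fit.

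The count over all genes ranged from 413 to 2394 around 1675 in G13R cells after serum, from 2155 to 4263 around 3985 in GFP cells, from 4 to 109 around 6 for G13R against GFP cells in normal growth, from 4 to 1620 around 107 after serum, and from 0 to 486 around 0 for the difference. The last 2 upper ends came without GFP serum replicate 1.

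Same-numbered libraries of different groups deviated together little (correlations of 0.0169 to 0.121 across genes), so the numbers were not read as pairs. With the replicate block the counts were 2 in G13R and 3 in GFP cells after serum; SDF2L1 was uncalled in GFP cells (adjusted p = 0.0522) and XBP1 called in G13R against GFP cells after serum (0.44, adjusted p = 0.0484). Over all genes the block gave 83 calls in normal growth and 403 after serum. Changes smaller than 0.5 on the log2 scale, as in all serum responses of the 10 genes, were not simulated, so how often they are missed is not known.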

Other observations

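An exact ERSE or ERSE-II match in the 250 bases before a start was found in 43 of 27305 RefSeq genes (0.158%), 36 of them outside the 10 genes. Matched by symbol, 22 of the 36 could be tested. Known ER factors among them were CALR and CANX, the lectin chaperones, PDIA6, a disulfide isomerase, SERP1, which stabilizes membrane proteins at translocation, FICD, which modifies BiP, and ALG12, a glycosylation enzyme that lies head to head with CRELD2. CALR had 296 and 304 FPKM in G13R cells after serum against 305 and 318 FPKM in normal growth, and 326 and 387 FPKM in GFP cells after serum against 360 and 392 FPKM in normal growth, and was called in neither. SERP1 fell in GFP cells, to 92.4 and 87.6 FPKM after serum against 115 and 127 FPKM in normal growth (-0.42, limma adjusted p = 0.026), and was not called in G13R cells (0.09).

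After serum 1 of the 22 genes rose and 1 fell in the G13R comparison (median -0.03), and 3 rose and 3 fell in the GFP comparison (median -0.11), near the 12.9% and 30.7% of all tested genes called in these comparisons. NUCB1, a calcium-binding protein of the Golgi, rose in each (0.58 and 0.60), and the glycogen synthase gene GYS1 fell in each (-0.57 and -0.61). None of the 22 was called between G13R and GFP cells in normal growth or after serum. These genes were picked for the motif after the search of the 10 genes, and their values are a description.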
